A study of Mus musculus with 7 samples.

Results

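The clustered protocadherin genes are neighbouring genes on mouse chromosome 18 that encode single-pass adhesion proteins of the cadherin superfamily. Members were taken as the protein-coding genes of GENCODE vM21 (mm10) with a symbol starting with Pcdha, Pcdhb or Pcdhg. This gave 57 of the 21938 protein-coding genes on the autosomes, X and Y: 12 alpha genes, 22 beta genes, 18 gamma A and B genes and the 5 C-type genes Pcdhac1, Pcdhac2, Pcdhgc3, Pcdhgc4 and Pcdhgc5. The annotation names 2 gene identifiers Pcdha11, and the first of them is called Pcdha10 here, after RefSeq. The interval examined, chr18:36880184-37891873, ran from the first to the last member with 50 kb on each side.

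Each variable exon of the alpha and gamma genes has its own promoter and is spliced to constant exons shared by its cluster, whereas the beta genes have no constant exons. In neurons, each cell uses only some of these promoters, which gives it a surface identity that takes part in self-recognition. Promoter choice is known to depend on DNA methylation and on loops that CTCF and cohesin form between promoters and distant enhancers, and the C-type genes are used more uniformly than the others.

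The data are ATAC-Seq peak calls from LSK cells (Lineage- c-Kit+ Sca-1+), the bone marrow compartment that holds stem cells and multipotent progenitors. ATAC-Seq cuts DNA where chromatin is accessible, and each library was made from 50000 sorted cells of adult C57/BL6 offspring. The 3 Ctrl libraries came from WT offspring of normal pregnancies. The 4 WTAkita libraries came from WT offspring of diabetic pregnancies. Their dams were Ins2 Akita/+, that is heterozygous for an insulin 2 mutation that damages beta cells of the pancreas, and the offspring themselves did not carry it. Per the study's methods, Ins2 Akita/+ females and their WT littermates alike received a 60 kcal% fat diet for 3 weeks before mating with C57BL/6 males. Ctrl mice came from a similar breeding scheme, and offspring of both groups were kept on regular diet to 8 to 12 weeks of age. Bone marrow was pooled for sorting, how many mice went into a library is not stated, and p-values therefore measure the spread between these libraries. Maternal diabetes and any other difference between the dams cannot be told apart.

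The libraries held 180817 to 195594 peak summits each, with a median fold enrichment of 4.69 to 5.66. Fold enrichment is the ratio of transposase cut tags at a summit to the local background, as MACS2 wrote it. It was lowest in WTAkita replicates 1 and 2 and in Ctrl replicate 1. Promoters of all 10 LSK and progenitor markers, Kit and Ly6a among them, held a summit in all 7 libraries. So did 6 of 10 markers of mature blood lineages, all 6 stromal and endothelial markers and 4 of 6 neuron markers, so an accessible promoter does not separate these cell types. Over all protein-coding genes with an annotated start, 70.3% did so. The T and natural killer cell genes Cd3e, Cd8a and Ncr1 and the neuron gene Stmn2 had no summit. The T cell gene Cd4 was called in all 7 libraries, at a mean fold enrichment of 13.2. So were the neuron genes Snap25, Map2, Rbfox3 and Tubb3, at means of 28.2, 19.3, 11 and 4.73. Summed fold enrichment over the LSK markers was 106 to 112 in Ctrl and 95.6 to 117 in WTAkita, and over the neuron markers 60.2 to 70.5 and 54.9 to 72.1.

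The first question was which members have an accessible promoter in LSK cells. A promoter was counted where a summit lay within 1000 bp of an annotated start of a protein-coding transcript. Of the 57 members, 21 had a summit in all 7 libraries, 20 in 1 to 6 libraries and 16 in none. Over the 21853 protein-coding genes with such a start, 70.3% had a summit in all 7 libraries, 3.55% in 1 to 6 and 26.1% in none. The share of members without any call was thus close to that of all genes, at 28.1%, whereas the 36.8% called in all 7 libraries was lower. In bulk cells, a low enrichment cannot be told apart from accessibility in fewer cells.

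The alpha, beta, gamma and C-type genes stood at different levels in this share. Of the C-type genes, 4 of 5, or 80.0%, were called in all 7 libraries, as were 10 of the 18 gamma A and B genes (55.6%). Only 5 of 22 beta genes (22.7%) and 2 of 12 alpha genes (16.7%) were. No alpha, beta or gamma group reached the 70.3% of all genes. The 12 non-clustered protocadherin genes, which lie outside the interval examined, were called in all 7 libraries for 9 genes and in none for Pcdh11x, Pcdh12 and Pcdh15, with no gene in between.

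**Figure D1:**
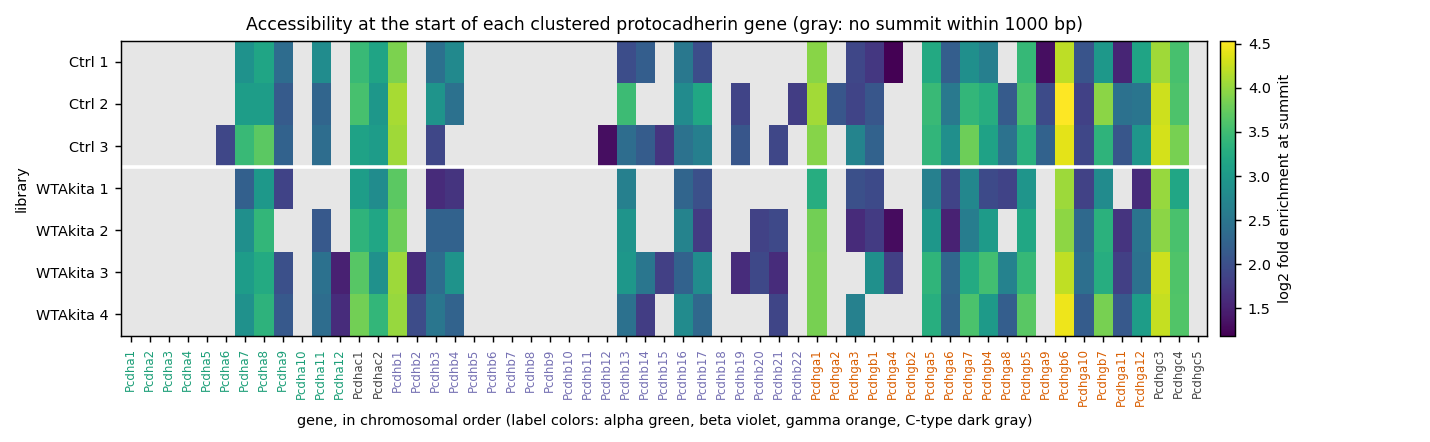
Heat map of log2 fold enrichment at the strongest summit within 1000 bp of a start of each of the 57 members (columns, in chromosomal order) in the 3 Ctrl and 4 WTAkita libraries (rows), with gray where no summit was called. Pcdha1 to Pcdha5 and Pcdhb5 to Pcdhb11 form gray blocks in all 7 libraries, and Pcdhb1, Pcdhga1, Pcdhgb6 and Pcdhgc3 are the brightest columns.

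Members without a call lay side by side. Pcdha1 to Pcdha5, the first 5 genes of the alpha cluster, fell in a stretch of 87.4 kb without a summit in any library. This stretch was counted from the edge of the interval examined, so its full length is not known here. Pcdhb5 to Pcdhb11 fell in a stretch of 128.2 kb without one, the longest of the interval, between a summit upstream of Pcdhb4 and a single call at Pcdhb12 in Ctrl replicate 3. The other members without a call were Pcdha10, Pcdhb18, Pcdhgb2 and Pcdhgc5. The next longest stretch without a summit, 120.1 kb between the beta cluster and the gene Slc25a2, held no member start. These empty stretches lay in an interval that was not poor in sites as a whole. It held 86 sites (500-bp windows around summits), or 85.0 per Mb, against 70.0 per Mb over the assembled chromosomes.

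Reads that fit several places can blur such calls, since the variable exons resemble each other. Of the 50-base words within 500 bp of a member start, a median of 0% occurred more than once in the mm10 chromosomes, and 30 of 57 members had no repeated word. The highest share was 25.0%, at Pcdha11. The alpha genes had a median of 15.7% and the beta genes one of 0%. Members called in all 7 libraries had a median of 0% and members called in none a median of 7.83%. By group, these medians were 8.3% and 16.5% in alpha and 0% and 2.1% in beta. In gamma they were 1.16% and 0%, the latter from 1 gene. The part of repeated sequence in the calls was not tested.

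**Figure D2:**
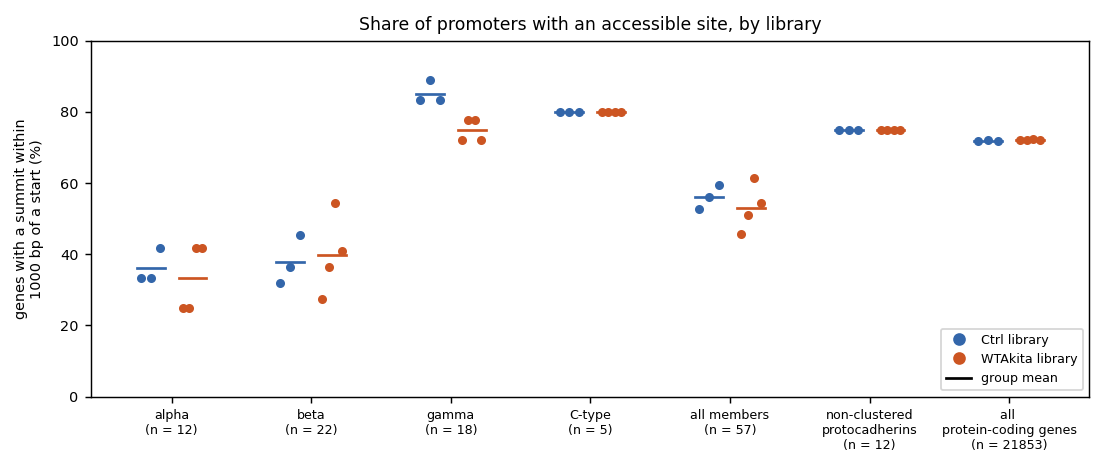
Percentage of genes with a summit within 1000 bp of a start in each library (points; bars, group means; n, genes) for the groups of members, the 12 non-clustered protocadherins and all 21853 protein-coding genes. Gamma A and B genes lie at 83.3% to 88.9% in Ctrl and 72.2% to 77.8% in WTAkita, while all genes stay within 71.8% to 72.3%.

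Per library, 30, 32 and 34 members had a summit in Ctrl replicates 1 to 3 and 26, 29, 35 and 31 in WTAkita replicates 1 to 4. The share was 56.1% ± 3.51 in Ctrl (SD, n = 3) and 53.1% ± 6.62 in WTAkita (SD, n = 4), and the groups overlapped. The fewest members were called in WTAkita replicate 1, the library of lowest median fold enrichment. The most were called in WTAkita replicate 3. Over all protein-coding genes the share was 71.9% ± 0.132 and 72.1% ± 0.118 over 21853 genes, where single genes weigh less than among 57. The alpha genes were called for 4, 4 and 5 genes in Ctrl and 3, 3, 5 and 5 in WTAkita, and the beta genes for 7, 8 and 10 and for 6, 8, 12 and 9. The same 4 C-type genes were called in every library.

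The gamma A and B genes were the one group whose counts did not overlap. A summit was called at 15, 16 and 15 of them in Ctrl and at 13, 14, 14 and 13 in WTAkita, a mean difference of -1.83 genes. This was picked out after the values were seen and carries no test. With peaks limited to a −log10 p of at least 5, the counts were 12 to 16 in Ctrl and 11 to 14 in WTAkita and overlapped. Without Pcdhga9 they were 14 to 15 and 13 to 14 and overlapped too. WTAkita replicate 4, the library of highest median fold enrichment, was among those with 13.

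The presence of accessible sites was then compared with base composition, because methylated CpG sites are known to close these promoters. Within 500 bp of the start, the C-type genes had a median GC content of 55.9%, the gamma genes 46.5%, the alpha genes 45.1% and the beta genes 41.3%, against 54.9% over 21839 protein-coding promoters with sequence. The ratio of observed to expected CpG was 0.67, 0.59, 0.69 and 0.38 in the same order, against 0.56 over all. Beta promoters were therefore poor in CpG, while alpha promoters were not. Members called in all 7 libraries had a median ratio of 0.64 and members called in none one of 0.44. Over all genes these medians were 0.70 and 0.16. Within the alpha cluster the ratio hardly differed, at 0.73 for the 2 genes called in all 7 libraries and 0.69 for the 6 called in none.

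Of other promoters whose GC content and CpG ratio lay in the range of the alpha genes, 79.4% (54 of 68) were called in all 7 libraries, against 2 of 12 alpha genes. In the range of the beta genes it was 38.7% of 3114 other promoters, against 22.7% of the beta genes. In the range of the gamma genes it was 65.5% of 1412 against 55.6%. These are descriptions, and genes of 1 cluster are not independent of each other.

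The letters CGCT form the core of a motif known from most clustered protocadherin promoters. Between 250 bp upstream and 50 bp downstream of the start, CGCT on either strand (AGCG on the other) was found in 55 of 57 members and in 67.5% of all protein-coding promoters. The 2 without it were Pcdhb22, called in 1 library, and Pcdhga12, called in 7. All 12 alpha promoters held it, of which 6 had no summit in any library.

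Strongest summits sat mostly just upstream of a start. Of the 41 members with a call, 35 had their strongest summit, as the median over libraries, within 200 bp upstream of a start, and the median over all 41 was -75 bp from it. The other 6 lay downstream. Over all 339 summits near member starts, weaker ones and repeats across libraries included, 54.0% lay within 200 bp upstream and 38.9% downstream of the start. At Pcdha7 and Pcdha8, the strongest summit was 542 bp and 499 bp past the start, inside the variable exon (2477 and 2478 bp long). The summit of Pcdhac2 lay 359 bp past its start, also inside the exon, that of Pcdhga12 283 bp past it, that of Pcdhb17 79 bp past it and that of Pcdhb1 19 bp past it. Pcdha9, next to Pcdha8, had its summit at -135 bp from the start in 6 libraries and a weaker site 468 bp past it in 1 WTAkita library. The alpha genes called in all 7 libraries were thus called in the exon, while upstream of their starts Pcdha8 had a call in 1 library and Pcdha7 in none.

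**Figure D3:**
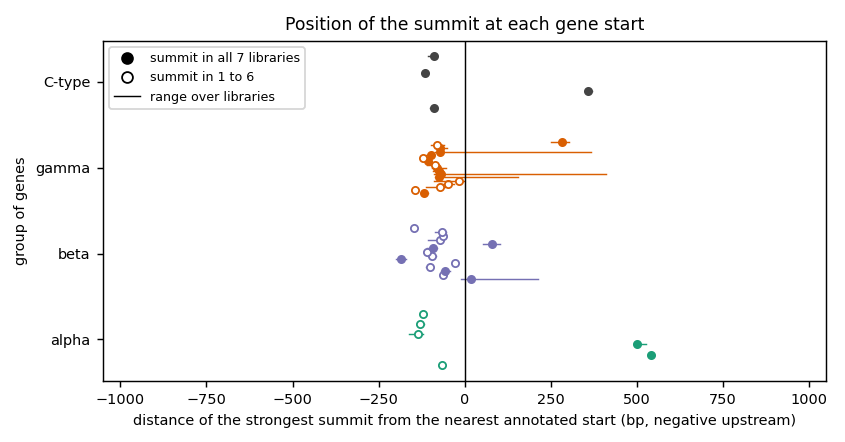
Distance in bp of the strongest summit from the nearest annotated start (x axis, negative upstream) for the 41 members with a call, by group of genes. Points are medians over libraries, filled where all 7 libraries had a summit, and lines give the range over libraries; 35 medians lie within 200 bp upstream and the 2 filled alpha points lie at 499 and 542 bp downstream.

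Levels at the promoters were modest. The median fold enrichment over protein-coding promoters called in all 7 libraries was 14.2, taken as the mean of the libraries. Of the 21 members called in all libraries, 4 exceeded it, namely Pcdhgb6, Pcdhgc3, Pcdhb1 and Pcdhga1. The 20 members called in 1 to 6 libraries had means of 2.49 to 5.43 with 9 to 33 tags at the summit. The 21 called in all libraries had means of 4.27 to 19.3.

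Pcdhgb6, a gamma B gene whose start is at chr18:37742094, had the highest level of all members. Its fold enrichment was 18.4, 23.2 and 21 in Ctrl replicates 1 to 3 and 16.5, 15.7, 18.6 and 21.8 in WTAkita replicates 1 to 4, and the groups overlapped. Its mean of 19.3 stood at percentile 78.9 of the promoters called in all 7 libraries.

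Among the C-type genes, Pcdhgc3, which starts at chr18:37806364, came first. Its fold enrichment was 16.6, 19.5 and 19.9 in the Ctrl libraries and 16.2, 15.5, 19.4 and 18.9 in WTAkita. It held 241 to 347 tags at the summit, more than any other member, at a promoter with a GC content of 58.5%. Pcdhgc4 had 11.8, 12.1 and 14.4 in Ctrl and 9.02, 11.9, 12.3 and 12.4 in WTAkita. Pcdhac1 had 11, 11.8 and 8.71 in Ctrl and 8.27, 10.3, 12.7 and 14.2 in WTAkita. Both overlapped between the groups, and WTAkita replicate 1 was the lowest library at each. Pcdhac2 had 8.84, 7.78 and 8.21 in Ctrl and 7.04, 8.98, 7.40 and 10.6 in WTAkita, again with overlap. Pcdhgc5, the last variable exon of the gamma cluster, had no summit near its start in any library, and its CpG ratio of 0.23 was the lowest of the C-type genes.

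Pcdhb1, the first beta gene, stood apart from the other beta genes. Its fold enrichment was 14.7, 17.2 and 16.7 in the Ctrl libraries and 12.9, 13.9, 16.5 and 16.2 in WTAkita. The beta gene next in level, Pcdhb13, had 3.93, 11.2 and 5.23 in Ctrl and 6.25, 7.60, 7.77 and 5.44 in WTAkita, a wide spread in Ctrl that rested on replicate 2. The 3 other beta genes called in all libraries, Pcdhb3, Pcdhb16 and Pcdhb17, had means of 5.04, 5.89 and 5.54.

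Pcdhga1, the first gamma gene, had a fold enrichment of 15.3, 16.8 and 15.2 in Ctrl and 9.68, 14.1, 14.4 and 14.4 in WTAkita. Of the 21 members called in all libraries it was the one whose deposited values did not overlap between the groups. On the normalized scale used for the test they overlapped, where 4.74% of all sites tested did not. No share over all promoters was counted on the deposited scale. WTAkita replicate 1, the lowest here, also had the lowest median over the genome. The other WTAkita values, 14.1 to 14.4, also lay below all Ctrl values. Without that library the difference on the normalized scale was -0.15, against -0.21 with all 7 libraries. The part of its low median was not tested. Pcdhga7 had 7.24, 10.6 and 13.9 in Ctrl and 6.66, 6.08, 9.42 and 12 in WTAkita. Pcdhga5 had 9.31, 11 and 10.5 in Ctrl and 6.25, 7.79, 10.4 and 9.80 in WTAkita. Values of both genes overlapped between the groups.

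The gamma B genes Pcdhgb7, Pcdhgb5 and Pcdhgb4 lay in the same range as these gamma A genes. Pcdhgb7 had 7.86, 15.5 and 10.3 in Ctrl and 7, 10, 9.67 and 14.4 in WTAkita. Pcdhgb5 had 10.8, 11.8 and 9.96 in Ctrl and 7.67, 9.12, 10.8 and 12.8 in WTAkita. Pcdhgb4 had 6.21, 9.68 and 8.71 in Ctrl and 3.83, 8.17, 11.5 and 8.06 in WTAkita. All 3 overlapped between the groups, and WTAkita replicate 1 was lowest at each. The pseudogene Pcdhgb8, annotated as polymorphic and so not a member, held a site at -172 bp from its start with a fold enrichment of 10.5, 10.8 and 12.2 in Ctrl and 8.27, 10.8, 12.2 and 14.0 in WTAkita. Its mean of 11.3 was above those of the adjacent genes Pcdhga11 and Pcdhga12, at 3.94 and 6.34.

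The 2 alpha genes called in every library were close to each other in level. Pcdha8 had 8.90, 8.32 and 12.9 in Ctrl and 7.87, 10.6, 9.42 and 10.2 in WTAkita. Pcdha7 had 7.45, 8.32 and 11 in Ctrl and 4.64, 7.22, 8.24 and 7.40 in WTAkita. Values overlapped for both genes. Pcdha9 and Pcdha11 were each called in 3 Ctrl and 3 WTAkita libraries, at means of 4.39 and 5.35. The called values of Pcdha9 did not overlap, at 4.45 to 5.17 in Ctrl and 3.63 to 4.36 in WTAkita, with no value for WTAkita replicate 2. No share over all promoters was counted for such partial calls.

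The strongest site of the interval was not a promoter. It lay at chr18:37218071-37218570, between the clusters, 30.7 kb past the last constant exon of the alpha genes and at -46618 bp from the start of Pcdhb1. Enhancers that act on clustered protocadherin promoters are known to lie beyond the constant exons, and no enhancer annotation was used here. Its fold enrichment was 21.6, 27.8 and 23.0 in the Ctrl libraries and 15.1, 21.1, 27.9 and 22.7 in WTAkita. A second site at 5.82 lay beside it, 29.7 kb past the alpha genes.

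**Figure D4:**
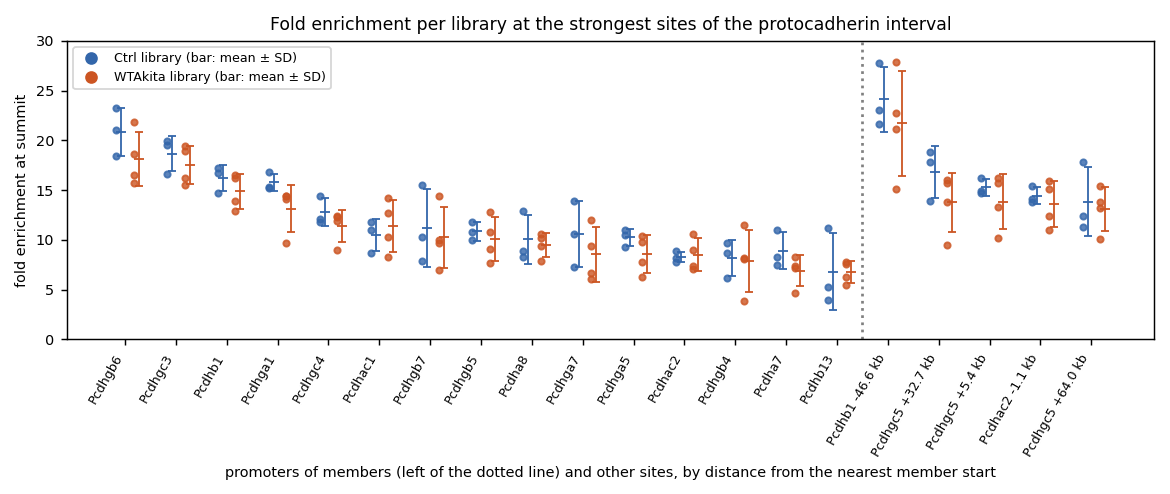
Fold enrichment in each library (points; bars, mean ± SD; Ctrl n = 3, WTAkita n = 4) at the 15 named promoters and, right of the dotted line, at the 5 strongest sites away from gene starts, labelled by distance from the nearest member start. The site 46.6 kb before Pcdhb1 lies above all promoters with a mean of 22.7, and the groups overlap at every site except the promoter of Pcdhga1.

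Strong sites were also found toward the end of the gamma cluster and in Diaph1, the neighbouring gene for an actin-nucleating formin. In the exon of Pcdhgc5, a site at chr18:37824758-37825257 lay 5441 bp past the start. It had a fold enrichment of 14.7, 14.9 and 16.2 in Ctrl and 10.2, 13.3, 16.2 and 15.7 in WTAkita, although the start itself held no summit. In an intron of Diaph1, 10.4 kb past the last gamma exon, a site had 13.9, 18.8 and 17.8 in Ctrl and 9.53, 13.8, 16.0 and 15.7 in WTAkita. A site 41.7 kb past that exon, also in Diaph1, had 11.3, 17.8 and 12.4 in Ctrl and 10.1, 13.2, 15.4 and 13.8 in WTAkita. These sites overlapped between the groups.

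A site at -1054 bp from the start of Pcdhac2 had higher values in each library than the site at the gene's start. Its fold enrichment was 14.1, 13.8 and 15.4 in the Ctrl libraries and 12.4, 11, 15.9 and 15.1 in WTAkita, a mean of 13.9 against 8.40 at the start. The beta genes Pcdhb3 and Pcdhb14 held a site in the exon far from the start and in all 7 libraries. At Pcdhb3 it lay 2328 bp past the start with a mean of 6.80, above the 5.04 of the promoter. At Pcdhb14, whose promoter was called in 4 libraries, it lay 2319 bp past the start with a mean of 3.56.

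The neighbouring genes within the interval were few. Taf7, which encodes a subunit of the general transcription factor TFIID and lies between the beta and gamma clusters, held a site at its start with a fold enrichment of 17.6, 18.6 and 14.7 in Ctrl and 19.6, 17, 18.2 and 17.6 in WTAkita. Slc25a2, a mitochondrial carrier gene beside it, was called in no Ctrl and in 3 WTAkita libraries, at 2.22, 3.30 and 2.83 with 10 to 13 tags. The lincRNA 3222401L13Rik held a site with a mean of 8.57.

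Fold enrichment did not set sites near member starts, called promoter sites here, apart from the other sites of the interval. The comparison is not one of promoters with non-promoters. The other sites included starts of genes that are not members, such as Taf7, Pcdhgb8 and 3222401L13Rik. The promoter sites included weaker sites inside an exon, as at 399 bp past the start of Pcdhgc3 (mean 3.55). The 86 sites comprised 47 at member promoters, 3 at starts of Taf7 and Slc25a2 and 36 elsewhere. Of the promoter sites, 23 were called in all 7 libraries, as were 21 of those elsewhere. In each library the median log2 fold enrichment of promoter sites was set against that of the other sites. The difference was 0.30, 0.34 and -0.19 in the Ctrl libraries and 0.06, 0.08, 0.13 and -0.16 in WTAkita, with a mean of 0.08 ± 0.20 (SD over 7 libraries). Its sign was not the same in all libraries, and with 300-bp windows the mean was -0.10. On the scale of tags at the summit in place of fold enrichment, promoter sites were lower, by a mean of -0.46 on the log2 scale.

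The second question was whether any site differed between offspring of diabetic and normal pregnancies. Sites called in all 7 libraries were compared with limma on quantile-normalized log2 fold enrichment, with Benjamini-Hochberg adjustment over all 118339 sites of the genome. At an adjusted p under 0.05, 0 sites were called (0%). An unadjusted p under 0.05 was found at 4558 sites, or 3.85%. Of the 46 sites of the protocadherin interval tested, 0 passed the adjusted threshold in this limma fit and 2, or 4.35%, had an unadjusted p under 0.05, a share near that of the genome. Leaving out single libraries changed the 2 sites to 5 (without Ctrl replicate 1), 4 (without Ctrl replicate 2 or WTAkita replicate 2) or 1 (without Ctrl replicate 3 or WTAkita replicate 1). The genome-wide count of 0 became 1 without WTAkita replicate 2, 6 without WTAkita replicate 4 and 10 on summit pileup, with 0 in the interval each time. Values of the groups did not overlap at 4 of the 46 sites, against 4.74% of all sites tested. The median difference was -0.05 on the log2 scale over the 46 sites, and 0.01 over all sites. It was below 0 at 30 of the 46 sites and at 56701 of the 118339, and above 0 at 16. Of the 23 promoter sites, 16 were lower and 7 higher in WTAkita, with differences from -0.55 to 0.20.

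**Figure D5:**
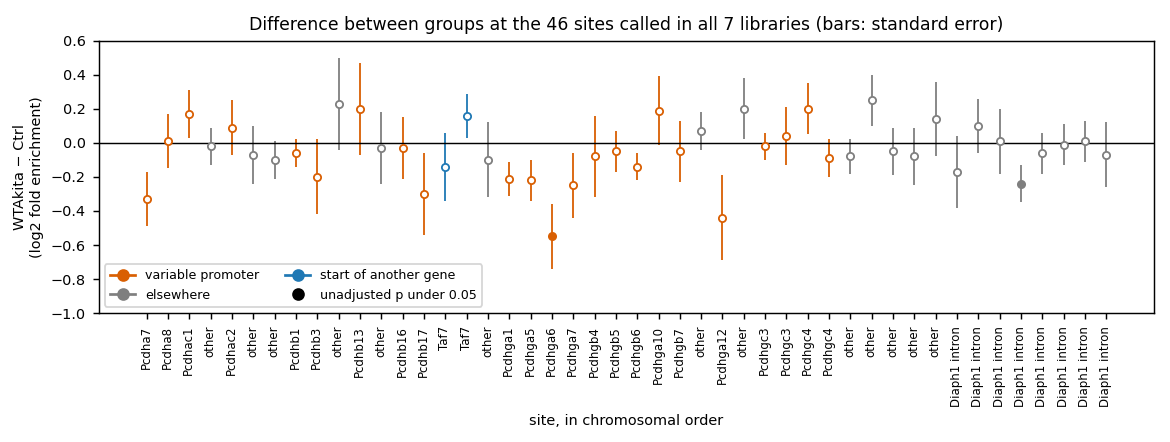
Difference between WTAkita and Ctrl in normalized log2 fold enrichment (points; bars, standard error) at the 46 sites called in all 7 libraries, in chromosomal order and colored by class of site. Filled points mark an unadjusted p under 0.05, which only the promoter of Pcdhga6 (-0.55) and 1 site in Diaph1 (-0.24) reached; neither passed the adjusted threshold.

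The largest difference was at Pcdhga6, a gamma A gene in the middle of its cluster, at chr18:37706720-37707219. Its fold enrichment there was 4.55, 5.81 and 7.22 in the Ctrl libraries and 3.23, 2.85, 4.95 and 4.79 in WTAkita, from 14 to 29 tags. Normalized log2 values were 2.26, 2.41 and 2.78 in Ctrl and 1.87, 1.56, 2.20 and 2.13 in WTAkita. The groups did not overlap on the normalized scale and overlapped slightly on the deposited one. The difference was -0.55 ± 0.19 (SE; limma, adjusted p = 1), and ranged from -0.66 to -0.39 when single libraries were left out. The smallest value, without Ctrl replicate 3, had an unadjusted p above 0.05.

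The other 4 sites with the smallest p among those lower in WTAkita were smaller in size. The Diaph1 site 10.4 kb past the gamma genes differed by -0.24 ± 0.11 (SE; limma, adjusted p = 1). Without WTAkita replicate 1 it was -0.15, and its unadjusted p was above 0.05 there and without Ctrl replicate 2, Ctrl replicate 3 or WTAkita replicate 4. The differences were -0.21 ± 0.10 at Pcdhga1, -0.33 ± 0.16 at Pcdha7 and -0.22 ± 0.12 at Pcdhga5 (SE). Pcdhga1 ranged from -0.28 without WTAkita replicate 2 (limma, unadjusted p = 0.0218) to -0.15 without WTAkita replicate 1. Pcdhga5 ranged from -0.27 without WTAkita replicate 3 to -0.16 without WTAkita replicate 1. It was -0.12 without the 3 libraries with the lowest medians. Pcdha7 was -0.19 without Ctrl replicate 3 and -0.22 without WTAkita replicate 1. It was -0.41 without Ctrl replicate 2 and -0.39 without WTAkita replicate 2, both with an unadjusted p under 0.05 in limma. Of the last 3 genes, only Pcdhga5 had normalized values that did not overlap, at 3.30 to 3.33 in Ctrl and 2.92 to 3.25 in WTAkita.

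Among the sites higher in WTAkita, none had an unadjusted p under 0.05. The smallest p was at chr18:37835412-37835911, in an intron of the gamma genes and 16095 bp past the start of Pcdhgc5. Its fold enrichment was 4.91, 6.82 and 5.73 in the Ctrl libraries and 6.18, 5.87, 7.30 and 7.04 in WTAkita. The difference was 0.25 ± 0.15 (SE; limma, adjusted p = 1), and normalized values did not overlap. At a minor site at -441 bp from the start of Pcdhgc4 it was 0.20 ± 0.15, also without overlap. With intervals joined across libraries, the interval over it gave -0.09. A joined interval takes its highest summit, and the stronger site at -106 bp from the start of Pcdhgc4 also differed by -0.09. The other 3 named sites were Taf7 at 0.16 ± 0.13, Pcdhac1 at 0.17 ± 0.14 and a site at -5480 bp from the start of Pcdhgc3 at 0.20 ± 0.18 (SE). These values moved with single libraries. Without Ctrl replicate 3, Taf7 was 0.04 and Pcdhac1 0.02, without WTAkita replicate 1 Taf7 was 0.05, without WTAkita replicate 4 Pcdhac1 was 0.11, and without WTAkita replicate 2 the site before Pcdhgc3 was 0.07. Other settings gave larger values. Without Ctrl replicate 1, Taf7 was 0.25 and Pcdhac1 0.27, and without Ctrl replicate 3 the site before Pcdhgc3 was 0.30. Pcdhac1 was 0.37 without the 3 libraries with the lowest medians (limma, unadjusted p = 0.041). Taf7 was 0.24 with the replicate block (limma, unadjusted p = 0.016).

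One site of the interval was called in all libraries of 1 group and none of the other. The promoter of Pcdhga9, at chr18:37736565-37737064, had a fold enrichment of 2.48, 3.87 and 4.73 in Ctrl replicates 1 to 3, from 11, 19 and 18 tags, and no summit in any WTAkita library. Over the genome, 0.115% of all 190792 sites were split in this way, and in the interval 1 of 86. The genome share includes 118339 sites called in all 7 libraries, which cannot be split. The opposite split, all 4 WTAkita libraries without any Ctrl call, was seen at 0.0917% of sites and at none in the interval. A peak list gives no value below its own cutoff, so no fold or p can be given for Pcdhga9, and its level in WTAkita is known only to have stayed under what was called. Called sites elsewhere in the interval held as few as 8 to 15 tags in each library. Over the 57 members, the share of libraries with a call was higher in Ctrl for 13, higher in WTAkita for 7 and equal for 37. The same count was not made over all protein-coding genes, so no lean toward either group is read from it. Among the members seen more in WTAkita, Pcdha12, Pcdhb2 and Pcdhb20 were each called in 2 WTAkita libraries and no Ctrl library, at means of 2.94, 3.49 and 3.69.

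The total number of summits in the interval did not separate the groups. Ctrl replicates held 81, 85 and 88 summits and WTAkita replicates 84, 79, 97 and 80, with means of 84.7 ± 3.51 (SD, n = 3) and 85.0 ± 8.29 (SD, n = 4). At member promoters the means were 49.3 ± 3.79 and 47.8 ± 5.56. WTAkita replicate 3 had the most of any library, both in the interval and at member promoters.

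Genes whose products act on clustered protocadherin promoters in other tissues were then examined. The list held 18 genes, including Ctcf and the cohesin genes Rad21, Smc1a and Smc3, the cohesin loader Nipbl, the unloader Wapl and the silencing factors Smchd1, Setdb1, Trim28 and Dnmt3b. All 18 had a promoter summit in all 7 libraries. The difference was above 0 for 15 genes and below 0 for 3, with a median of 0.04 on the log2 scale, where all sites of the genome had 0.01. By limma, 0 of 18 had an adjusted p under 0.05 and 0 an unadjusted one. The 2 highest and 2 lowest were Smchd1, which silences clustered protocadherins and the inactive X, at 0.10 ± 0.09, the histone methyltransferase gene Setdb1 at 0.09 ± 0.09, the cohesin subunit gene Stag1 at -0.07 ± 0.11 and the histone methyltransferase gene Ehmt1 at -0.04 ± 0.09 (SE), which turned to 0.02 without WTAkita replicate 4. Without single libraries Smchd1 ranged from 0.03 (without WTAkita replicate 1) to 0.16 (without Ctrl replicate 1) and Setdb1 from 0.05 (without Ctrl replicate 1) to 0.15 (without Ctrl replicate 2). Stag1 reached -0.14 without Ctrl replicate 2 and -0.02 without WTAkita replicate 4, and was nearest to 0 without Ctrl replicate 1.

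Of the 9 non-clustered protocadherins tested, 7 were above 0 and 2 below, and by limma 0 had an adjusted or unadjusted p under 0.05. Pcdh18 differed by 0.20 ± 0.23, Pcdh19 by 0.08 ± 0.11, Pcdh10 by -0.12 ± 0.10 and Pcdh20 by -0.01 ± 0.16 (SE), the last with 0.03 under median centring. Without Ctrl replicate 1, Pcdh18 differed by 0.51, with an unadjusted p under 0.05, and Pcdh10 by -0.06, and without Ctrl replicate 2 Pcdh18 differed by 0.02. Pcdh19 was 0.05 without Ctrl replicate 2 or WTAkita replicate 2. Mean fold enrichment of the 9 ranged from 3.16 at Pcdh20 to 14.3 at Pcdh17, where the clustered members called in all libraries had 4.27 to 19.3.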

How the data were processed

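ATAC-Seq peak lists of 3 Ctrl and 4 WTAkita LSK libraries were used. Per the paper's methods and the submitters' processing notes, the authors used Trim Galore 0.4.2 (cutadapt 1.9.1) for trimming of paired reads and Bowtie2 2.3.4.1 for alignment to mm10. Duplicate reads were dropped, and MACS2 (2.1.4 in the notes) called peaks per library at a p cutoff of 0.01. No filter on reads with several alignments is stated. The deposited files give, for each summit, a fold enrichment (a ratio of pileup to local background), −log10 p-values and q-values and a score, and no read counts under common regions. Pileups at summits, solved from fold enrichment and p-value, were within 0.02 of a whole number for 100% of lines, with a median of 40.0 to 53.0 tags, and 37.6 to 53.1 M tags were estimated per library. Low sites rest on few tags.

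Sites were 500-bp windows around the strongest summits, 190792 in all, each taking a library's highest fold enrichment with a summit inside. They replace the merging of peaks that the study's methods describe, and interval widths, q-values and scores were not used. Sites called in all 7 libraries (118339) were compared with limma 3.58.1 (R 4.3.3) with trend on quantile-normalized log2 fold enrichment, tested on simulated data. Promoter shares and peak numbers carry no test. Sequence composition came from the GRCm38 assembly of RefSeq, read for numbers only. Python 3.11.15 was used otherwise.

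Genes were named where a promoter was called in at least 4 libraries (the 15 of highest mean fold enrichment) or C-type, and sites where they were among the 5 strongest away from gene starts, the 5 of smallest p in each direction or split by group; of each gene list the 2 farthest above and below 0 were named. Lists covered 18 regulators, 12 non-clustered protocadherins and markers of LSK cells, mature lineages, stroma and endothelium, and neurons. Members, lists and tests were chosen with earlier results of these data known. Alternatives were a −log10 p of at least 5, 300-bp windows, joined intervals, median centring, summit pileup, limma without trend, a looser filter, a replicate block, other promoter windows and leaving out libraries.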

Additional observations from a re-analysis of the deposited data

Results flagged for a closer look

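Only the WTAkita group has enough libraries for a check of single outlying values, and chance flags about 1 in 20 such groups, of which 29 were checked. At the promoter of Pcdhga1, WTAkita replicate 1 had a fold enrichment of 9.68, where the other 3 WTAkita libraries had 14.1 to 14.4. At the promoter of Pcdhgc4, the same library had 9.02, where the others had 11.9 to 12.4. WTAkita replicate 1 also had the lowest median fold enrichment of all libraries, at 4.69. Its part in these values was not tested.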

How the results depend on the processing

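The number of sites of the genome with an adjusted p under 0.05 was 0 in limma and stayed at 0 with 300-bp windows, joined intervals, median centring, no trend or on leaving out the 3 libraries with the lowest medians. It was 1 with peaks at a −log10 p of at least 5, 10 on summit pileup and 2 with sites called in at least 2 Ctrl and 2 WTAkita libraries, and 0 to 6 when single libraries were left out, the 6 without WTAkita replicate 4. In none of these did a site of the interval pass. The number of interval sites with an unadjusted p under 0.05 was 2. It was 1 with stricter peaks, 1 on summit pileup, 1 without trend, 4 on leaving out the 3 libraries with the lowest medians and 1 to 5 when single libraries were left out (5 without Ctrl replicate 1, 4 without Ctrl replicate 2, 4 without WTAkita replicate 2, 1 without Ctrl replicate 3 and 1 without WTAkita replicate 1). The cause was not tested.

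Same-numbered libraries of the 2 groups correlated in their deviations by 0.212, 0.0212 and 0.0632. Libraries with different numbers correlated by -0.182 to 0.107. Whether same-numbered libraries share more than a number was not tested. With replicate block on libraries 1 to 3, limma gave 0 sites of the genome at an adjusted p under 0.05. At an unadjusted p under 0.05 it gave 7304 of 119187 sites of the genome and 5 of 47 interval sites.

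The share of members with a summit moved by less than its spread between libraries (54.4% ± 5.36, SD, n = 7) in every alternative run, from 50.6% with stricter peaks to 57.9% without the 3 libraries, and from 53.2% to 55.8% without single libraries. The difference in summits of the interval, 0.333, ranged from -3.67 to 2.33 without single libraries. The difference of member promoter sites from the other sites of the interval moved from 0.08 to -0.46 on summit pileup. It was -0.10 with 300-bp windows and 0.15 with stricter peaks, and ranged from 0.04 to 0.13 without single libraries. The difference in called gamma A and B promoters, -1.83, was -0.833 without Pcdhga9, an alternative chosen after seeing the data.

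Of 18 named sites under all alternatives that gave a value, 276 of 286 values did not turn to the opposite sign and none passed the adjusted threshold. A value without a sign after rounding was counted with the 276. Reversed were Ehmt1 (0.02 with the replicate block, and -0.08 to 0.02 without single libraries, 0.02 without WTAkita replicate 4) and Pcdh20 (0.03 with median centring, 0.08 on summit pileup, 0.09 without the 3 libraries, and -0.18 to 0.10 without single libraries, above 0 without Ctrl replicate 1 or 2 or WTAkita replicate 2 or 3). Counted as reversed too was the joined interval over the site at -441 bp from Pcdhgc4 (-0.09), which takes its highest summit in place of that site. With stricter peaks the site of Pcdhga6 was no longer called in every library and gave no value. Members called in some libraries rested on 9 to 33 tags; the part of depth in their calls was not tested.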
